A study of Mus musculus with 8 samples.

Results

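Small nucleolar RNAs (snoRNAs) are short RNAs of the nucleolus, the site of ribosome production in the nucleus. The snoRNA genes described here are all mouse genes whose symbol begins with Snord or Snora followed by a number and that had a probe set carrying no other gene symbol. Where a gene had several such probe sets, the brightest on average across all 8 arrays stood for it. The rule found 51 snoRNA genes among 19356 genes measured, of which 31 were C/D box genes (Snord) and 20 were H/ACA box genes (Snora). They lay on 56 probe sets, and 5 of them had 2 probe sets each. RefSeq's annotation of GRCm38.p6 lists 133 symbols of this form.

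RNA was measured in the caudal end of the urogenital ridge, the embryonic tissue strip that gives rise to kidney and gonad, from wildtype mouse embryos and from embryos labelled Sox11 knock-out. Sox11 encodes a SoxC transcription factor. All embryos were at stage E10.75, were on a mixed genetic background and received no treatment. Each genotype had 4 independent RNA replicates, each hybridised to an Affymetrix array after column DNase digestion, reduction of ribosomal RNA, whole-transcript cDNA amplification and biotin labelling. The sources used here give neither the number of embryos behind a replicate nor how the Sox11 allele was made. Values are log2 signals, so a difference of 1 is a doubling of signal, and the small number of arrays limits the precision.

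C/D box snoRNAs guide the methylation of ribose in ribosomal RNA through a particle with the methyltransferase fibrillarin, and H/ACA box snoRNAs guide the conversion of uridine to pseudouridine through a particle with dyskerin. A few, among them U8, U14, U17 and U22, act instead or also in the cleavage of the ribosomal RNA precursor. In mammals most snoRNAs are released from introns of other genes, called hosts, many of which encode ribosomal proteins or are non-coding RNAs whose spliced product is unstable. Host transcripts often begin with a run of pyrimidines, and snoRNA and host RNA from 1 transcript can have different stabilities.

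In RefSeq's annotation 50 of the 51 snoRNA genes lay inside another gene. Snord118, which encodes U8, did not. The 50 lay in 40 different hosts. Ribosomal protein genes numbered 16 of these and held 21 of the snoRNA genes, 13 of the C/D box class and 8 of the H/ACA box class. Another 10 hosts were non-coding and held 13 snoRNA genes, 8 of the C/D box class and 5 of the H/ACA box class. Other protein-coding genes held the remaining 16. The annotated length had a median of 68 bases, from 45 to 148, for C/D box genes and a median of 125 bases, from 61 to 205, for H/ACA box genes.

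The starts of 6 hosts are shown because they are where the transcripts begin that carry the 6 snoRNA genes with the largest differences, and Snora44, described further on for its spread between arrays. Each sequence is from RefSeq's GRCm38.p6, runs 5′ to 3′ on the host's strand, and holds the 20 bases before and the first 10 bases after an annotated start. Capitals mark the letters CTTTC, a short pyrimidine motif chosen after the sequences were seen.
Rps3a1, host of Snord73a and Snord73b, minus strand, chr3:86142659-86142688: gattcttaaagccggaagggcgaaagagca
Snhg3, host of Snora73a and Snora73b, minus strand, chr4:132353677-132353706: aggcatagtcgaccacgcctgacttccggg
Gas5, host of Snord47, upstream start, plus strand, chr1:161034581-161034610: cgccaagggggcgggcccgcgagctcgaca
Gas5, downstream start, plus strand, chr1:161035146-161035175: gactcagccgccatctcagcCTTTCggagc
2410006H16Rik, host of Snord49a and Snord49b, plus strand, chr11:62602857-62602886: ggcgctcacgcgccgtCTTTCtctgcggcc
Ncl, host of Snora75 and Snord82, minus strand, chr1:86359446-86359475: cggttggctccggggacggacgcgagctct
Snhg12, host of Snora16a and Snora44, plus strand, chr4:132308658-132308687: gtgcaggccgttctcagtcCTTTCtcgctt

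Of the 40 hosts, 30 were in the RefSeq table of starts, and 7 of these, or 23.3%, had CTTTC on the host's strand within the 30 bases. Over all 27025 genes in the table the share was 4.95%. Among 53 ribosomal protein genes that held no measured snoRNA it was 24.5%, so the share of the hosts was near that of these genes. The 53 can include hosts of snoRNA genes that were not measured here, so they are not a set of genes without snoRNAs. On the opposite strand the motif stood in 1 host, Rps3a1, or 3.33%, and in 4.06% of all genes. A match of letters is a description of the sequence only.

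Sox11 itself served as a check of the labels. Its log2 signal was 11.79 ± 0.06 (SD, n = 4) in wildtype and 9.10 ± 0.13 in knockout, a difference of -2.69 (SE 0.08, limma adjusted p = 6.36e-08). Of 9 nephric duct genes measured, 8 had a mean signal above the median of 7.55 over all genes, from 7.72 for Wnt11 to 11.42 for Calb1, and Lhx1 was below it at 7.21. All 7 metanephric mesenchyme genes measured were above it, from 8.71 for Gdnf to 11.76 for Osr1. Across all genes 70, or 0.362%, were called higher in knockout and 209, or 1.08%, lower, at a limma p under 0.05 after Benjamini-Hochberg adjustment over all 19356 genes. The labels call each array a biological replicate but do not say whether replicates came from separate litters. The p-values therefore only set a genotype difference against the spread within genotype of these samples. In dissected tissue, fewer cells of a type and less RNA per cell cannot be told apart.

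Against that background, 1.44% called in either direction, 1 of the 51 snoRNA genes, Snord73b, rose in knockout and 0 fell. At an unadjusted limma p under 0.05 there were 8 higher, among all genes 7.29%, and 1 lower, among all genes 9.38%. The linear model without moderation called 0 snoRNA genes. In 4 of 51, or 7.84%, every knockout array lay above every wildtype array, where 4.04% of all genes did so. These 4 were Snord73b, Snord47, Snord49b and Snora73b. The reverse order was seen in 0 of 51, and in 6.47% of all genes.

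The means nonetheless leaned to one side. In 39 of 51 snoRNA genes, or 76.5%, the knockout mean was above the wildtype mean, against 49.9% of all genes. C/D box genes gave 22 of 31, or 71.0%, and H/ACA box genes 17 of 20, or 85%. The median difference, knockout minus wildtype on the log2 scale, was 0.0929 for C/D box genes and 0.0936 for H/ACA box genes, beside -0.0005 for all genes. The differences ran from -0.22 to 0.67 in the C/D box class and from -0.14 to 0.59 in the H/ACA box class. Both classes thus had the same median to within 0.01, and their ranges overlapped over most of their length. The lean was much smaller when 1 array was left out: without wildtype replicate 3 the medians were 0.03 in both classes and the counts above 0 were 17 of 31 and 11 of 20. Without knockout replicate 2 the medians were 0.04 and 0.05.

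**Figure D1:**
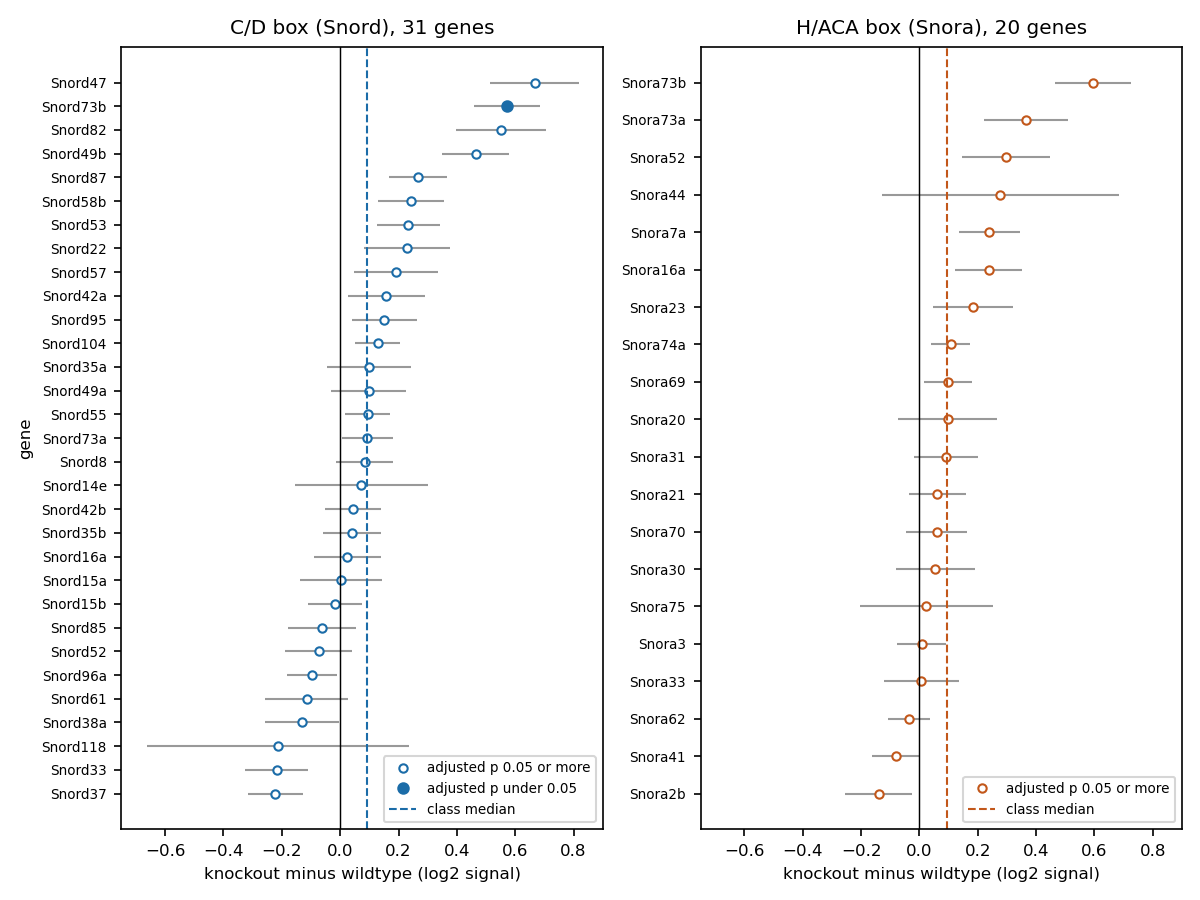
Difference in log2 signal, knockout minus wildtype, for each of the 51 snoRNA genes, with C/D box genes and H/ACA box genes in separate panels. Bars extend by the limma standard error (SE) to each side and are not 95% intervals. The filled point is the gene with an adjusted p under 0.05. Most points lie to the right of 0, and Snord73b at 0.57 is the only filled one.

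Among the C/D box genes, Snord73b is a methylation guide carried in an intron of Rps3a1, the gene of a protein of the small ribosomal subunit. Its log2 signals were 10.05, 9.66, 9.56 and 10.01 in wildtype replicates 1 to 4 and 10.40, 10.37, 10.51 and 10.30 in knockout replicates 1 to 4. All knockout arrays lay above all wildtype arrays, and the knockout arrays were close together. The means were 9.82 ± 0.25 (SD, n = 4) and 10.40 ± 0.09, a difference of 0.57 (SE 0.11, 1.49-fold, limma adjusted p = 0.0384). The call held in 10 of 20 alternative settings, with adjusted p from 0.0213 to 0.139. It was lost without wildtype replicate 2 (limma adjusted p = 0.106) or 3 (0.0771), without any one of the 4 knockout replicates (0.0700 to 0.108), and with the replicate number as a block (0.0908).

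Snord47, a guide in Gas5, had the largest difference of all snoRNA genes. Gas5 is a non-coding RNA gene that carries several C/D box snoRNAs. Snord47 gave 10.04, 9.59, 9.65 and 9.31 in wildtype and 10.10, 10.17, 10.59 and 10.39 in knockout. The groups did not overlap, but the highest wildtype array, replicate 1, came close to the lowest knockout array, also replicate 1. The means were 9.65 ± 0.30 and 10.31 ± 0.22, 0.67 apart (SE 0.15, 1.59-fold), with a limma adjusted p of 0.0638 that missed the threshold. It passed in 5 of 20 alternative settings, with adjusted p from 0.0290 to 0.192. Without wildtype replicate 1 the difference was 0.80 (limma adjusted p = 0.0290), and without any one of the other 7 arrays it missed the threshold, with differences from 0.55 to 0.74 (limma adjusted p from 0.0818 to 0.169).

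Snord49b, which lies with Snord49a in the non-coding gene 2410006H16Rik, measured 9.93, 9.55, 9.86 and 9.49 in wildtype and 9.99, 10.18, 10.35 and 10.16 in knockout. Here too the groups were separate, with means of 9.71 ± 0.22 and 10.17 ± 0.14. The difference of 0.46 (SE 0.11) had a limma adjusted p of 0.0809 and passed in 0 of 20 alternative settings, with adjusted p from 0.0516 to 0.194.

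Snord82 lies in Ncl, the gene of nucleolin, an abundant nucleolar protein. Its signals were 11.67, 11.09, 11.21 and 10.94 in wildtype and 12.03, 11.54, 11.64 and 11.90 in knockout. Wildtype replicate 1 reached into the knockout range, the others did not. The difference was 0.55 (SE 0.16, limma adjusted p = 0.114), and 0.70 without that array (limma adjusted p = 0.0376), the only 1 of 20 alternative settings that passed. The adjusted p over those settings reached 0.266, and the lowest difference was 0.46.

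The remaining C/D box genes had smaller differences, none past the threshold. Snord87 differed by 0.27 (95% interval 0.05 to 0.48), Snord58b by 0.24 and Snord53 by 0.23, with limma adjusted p from 0.212 to 0.309. Snord22 encodes U22, which is needed for processing of the small-subunit ribosomal RNA, and differed by 0.23 (95% interval -0.10 to 0.56). Snord14e, a copy of U14, which acts in the same process, differed by 0.07 with a wide interval of -0.43 to 0.58. On the lower side stood Snord37, a guide in the elongation factor gene Eef2, with 8.38, 8.12, 8.07 and 8.39 in wildtype and 8.10, 8.06, 8.07 and 7.86 in knockout. Its difference of -0.22 (SE 0.09, limma adjusted p = 0.267) was the lowest of the class, beside -0.22 for Snord33.

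In the H/ACA box class the largest difference was that of Snora73b, 1 of 2 genes for U17. This snoRNA takes part in cleavage of the ribosomal RNA precursor, and both genes lie in the non-coding host Snhg3. Snora73b measured 8.41, 8.64, 8.73 and 8.57 in wildtype and 8.83, 9.44, 9.35 and 9.10 in knockout. Every knockout array lay above every wildtype array, knockout replicate 1 by the least. The means were 8.59 ± 0.14 and 9.18 ± 0.28, 0.59 apart (SE 0.13, 1.51-fold), and the limma adjusted p of 0.0547 narrowly missed the threshold. Of 20 alternative settings 7 brought it under 0.05, among them the replicate number as a block (limma adjusted p = 0.0291) and leaving out knockout replicate 1 (0.0223).

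Snora73a, the other U17 gene, measured 8.43, 8.72, 8.93 and 8.95 in wildtype and 8.78, 9.39, 9.22 and 9.11 in knockout. Its groups overlapped through knockout replicate 1, and its difference was 0.37 (SE 0.14, limma adjusted p = 0.240). The lowest array of each genotype was replicate 1 in both U17 genes.

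The other H/ACA box genes did not pass the threshold. Snora52, in Rplp2, a gene of the ribosomal stalk, differed by 0.30 (95% interval -0.04 to 0.63). Snora7a differed by 0.24 (95% interval 0.01 to 0.47) and Snora16a by 0.24 (-0.02 to 0.49). Several were measured tightly. Snora62 differed by -0.03 (95% interval -0.19 to 0.12) and Snora3 by 0.01 (-0.18 to 0.19), both near 0, and Snora74a by 0.11 (-0.04 to 0.25). The mean signals of Snora62, 6.48, and Snora74a, 6.75, were not far above the 25th percentile of gene level, 6.22, where array signal understates differences. The lowest of the class was Snora2b, at -0.14.

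**Figure D2:**
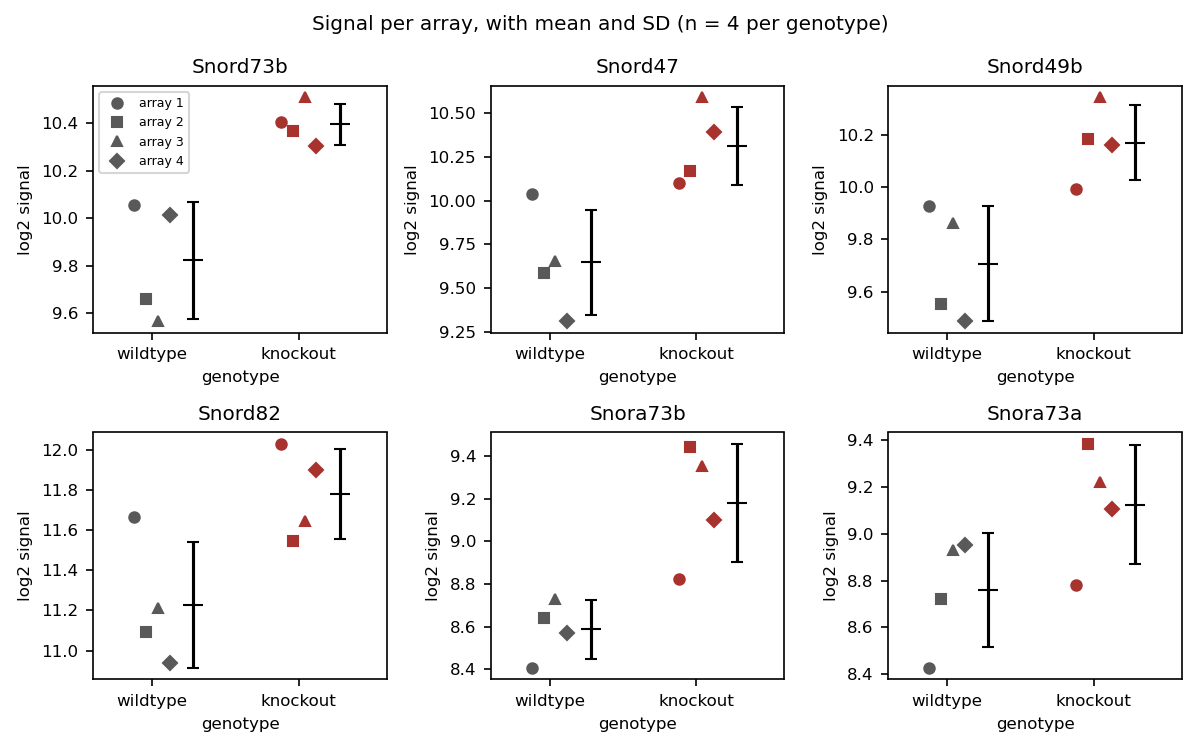
Log2 signal on every array for 6 snoRNA genes, wildtype in grey and knockout in red, with the mean and SD of 4 arrays per genotype and a marker for each replicate number. For Snord73b all knockout points, 10.30 to 10.51, lie above the wildtype points, 9.56 to 10.05.

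Read array by array, the snoRNA genes shifted together more on some arrays than on others. Each value was set against the gene's own mean over the 8 arrays. On wildtype replicate 3 the median was -0.21 for C/D box genes and -0.13 for H/ACA box genes, and only 1 of 31 and 3 of 20 lay above their own mean. Knockout replicate 2 was the opposite, with medians of 0.14 and 0.15 and 24 of 31 and 19 of 20 genes above their mean. Both classes were therefore low on the same wildtype array and high on the same knockout array. The all-gene medians on these arrays were 0.01 and -0.002.

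The other 6 arrays showed smaller shifts. Wildtype replicates 1, 2 and 4 had C/D box medians of 0.11, -0.05 and 0.04 and H/ACA box medians of 0.03, -0.07 and 0.03. Knockout replicates 1, 3 and 4 had C/D box medians of 0.05, 0.09 and -0.01 and H/ACA box medians of -0.09, 0.07 and 0.02. The classes parted most on knockout replicate 1, where 18 of 31 C/D box genes but 3 of 20 H/ACA box genes lay above their own mean. Within genotypes wildtype replicate 1 was thus above 3 of the 4 knockout arrays in the C/D box class, and knockout replicate 4 lay near 0.

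Other short RNAs on these arrays were set beside this. The 246 measured microRNA genes had medians of -0.05, -0.05, -0.06 and 0.11 on wildtype replicates 1 to 4 and of -0.08, 0.08, -0.003 and 0.06 on knockout replicates 1 to 4. Their highest array was wildtype replicate 4 and their lowest knockout replicate 1, where both snoRNA classes had knockout replicate 2 and wildtype replicate 3. Within genotypes the order was partly alike. Wildtype replicate 3 was the lowest wildtype array and knockout replicate 2 the highest knockout array, as in both snoRNA classes. Of these genes 152 had a knockout mean above wildtype (median difference 0.05, 0 called by limma, 21 higher and 9 lower at an unadjusted p under 0.05). Among all genes 49.9% had a higher knockout mean, and at that unadjusted p 7.29% were higher and 9.38% lower. Of 7 other small RNAs, such as the RNase MRP component Rmrp and the Y RNA Rny3, 5 were above 0 (median difference 0.17). Their medians were 0.03, -0.09, 0.10 and -0.19 on wildtype replicates 1 to 4 and -0.02, 0.46, -0.02 and -0.09 on knockout replicates 1 to 4. The 4 measured Rnu genes were all below 0 (median difference -0.17). Their median was 0.21 on wildtype replicate 3 and -0.12 on knockout replicate 2. Of 3 measured Scarna genes 2 were above 0 (median difference 0.002). Their medians were -0.05, -0.10, -0.11 and 0.10 on wildtype replicates 1 to 4 and -0.15, 0.22, -0.10 and 0.04 on knockout replicates 1 to 4. Knockout replicate 2 was thus their highest array and wildtype replicate 3 their lowest wildtype array, as in both snoRNA classes. The part of these short RNAs in the snoRNA differences, and that of how well short RNAs were recovered on each array, was not tested.

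**Figure D3:**
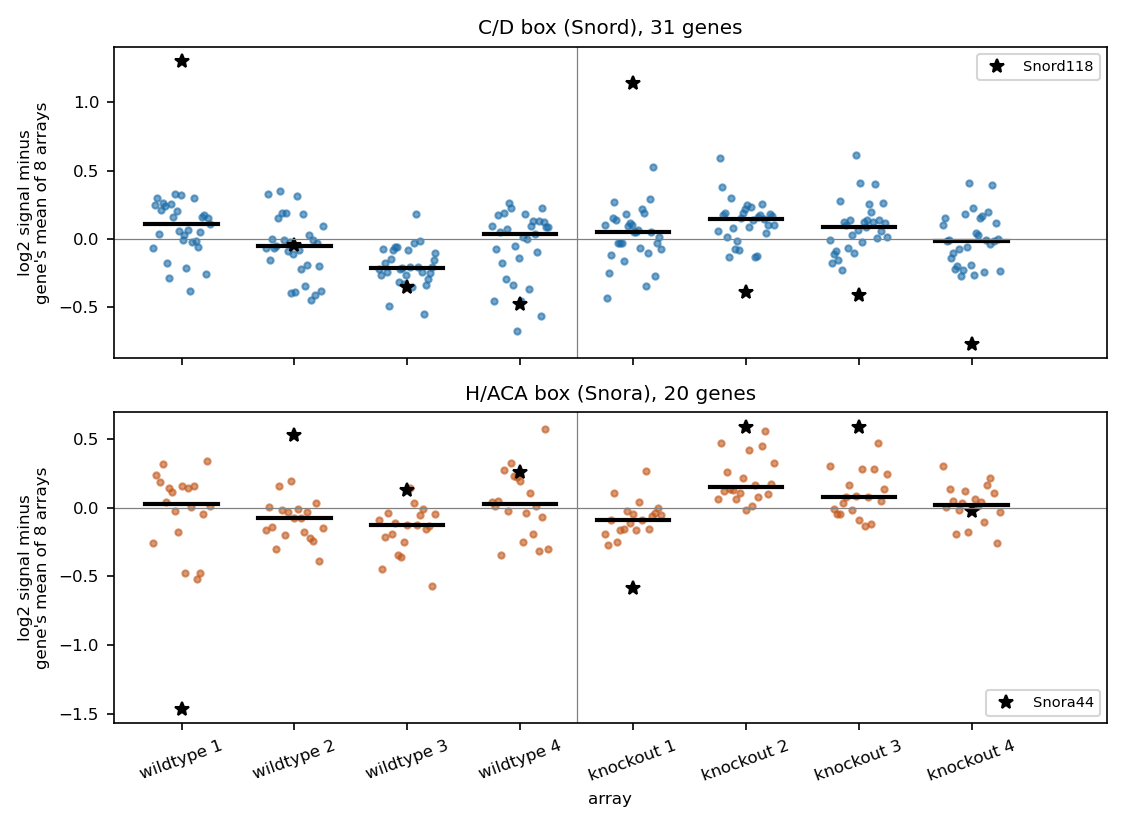
Log2 signal of each snoRNA gene minus its own mean over the 8 arrays, by array, for C/D box and H/ACA box genes; black bars are medians and stars mark Snord118 and Snora44. Wildtype replicate 3 has the lowest medians, -0.21 and -0.13, and knockout replicate 2 the highest, 0.14 and 0.15.

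The spread within genotype was larger for snoRNA genes than for most genes. The median pooled SD was 0.187 for C/D box genes and 0.189 for H/ACA box genes, and 0.121 for all genes. In each class a single gene set the upper end. Snord118 had a pooled SD of 0.832 and Snora44 one of 0.751.

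Snord118 encodes U8, which acts in the maturation of the large-subunit ribosomal RNAs and is transcribed from its own promoter. It measured 7.71, 6.37, 6.06 and 5.93 in wildtype and 7.55, 6.02, 6.0 and 5.64 in knockout. Replicate 1 was more than 1 log2 unit above the other 3 arrays in both genotypes. The difference between genotypes was -0.21 (95% interval -1.20 to 0.78, limma adjusted p = 0.839), an interval wide enough to hold a change well larger than that of Snord73b in either direction. Both of its probe sets hold the same values on all 8 arrays.

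Snora44, an H/ACA box gene in Snhg12, went the other way. It measured 7.03, 9.03, 8.63 and 8.76 in wildtype and 7.91, 9.08, 9.09 and 8.47 in knockout. Replicate 1 was the lowest array of both genotypes, and the difference was 0.28 (95% interval -0.62 to 1.17, limma adjusted p = 0.762). Snora16a, in the same host, measured 7.96, 8.05, 8.12 and 8.25 in wildtype and 8.02, 8.28, 8.52 and 8.52 in knockout, also lowest in replicate 1 but by a small step.

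Of all 19356 genes, Snord118 had the largest gap by which both arrays numbered 1 lay above the other 6 arrays, 1.18, and Snora44 the largest gap by which both lay below, 0.56. This ordering was looked for after the values were seen. Both arrays numbered 1 stood above the rest in 3 of 51 snoRNA genes, or 5.88%, beside 2.29% of all genes, and below the rest in 2, or 3.92%, beside 2.73%. The remaining 3 were Snora70 and Snora62 above and Snora16a below, with gaps of at most 0.08. Among other RNA genes, the U3 gene Rnu3a (gap 0.32), the U12 gene Rnu12 (0.25) and the histone genes H3c15 (0.59) and H1f2 (0.43) stood above, and Rmrp (0.18) below. U3 is itself a C/D box RNA of the early ribosomal RNA cleavages, whose symbol does not begin with Snord.

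The labels do not say that a replicate number marks a shared litter or day. Across the 51 genes the deviations of wildtype and knockout replicate 1 from their genotype means correlated at 0.67, and at 0.28 over the 49 genes without Snord118 and Snora44. Over all genes the same correlation was -0.17. For replicates 2, 3 and 4 the correlations across the 51 genes were 0.37, 0.32 and 0.09, and 0.24, 0.14 and -0.19 without those 2 genes. Arrays of unlike number correlated from -0.57 to 0.41 across the 51 genes, the highest being wildtype replicate 4 with knockout replicate 3. Over all genes they correlated from -0.24 to 0.24. Without both arrays numbered 1, Snord47 and Snora73b passed the threshold (limma adjusted p = 0.0395 and 0.0485) and Snord73b did not (0.0908). The median differences were then 0.113 for C/D box and 0.154 for H/ACA box genes.

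**Figure D4:**
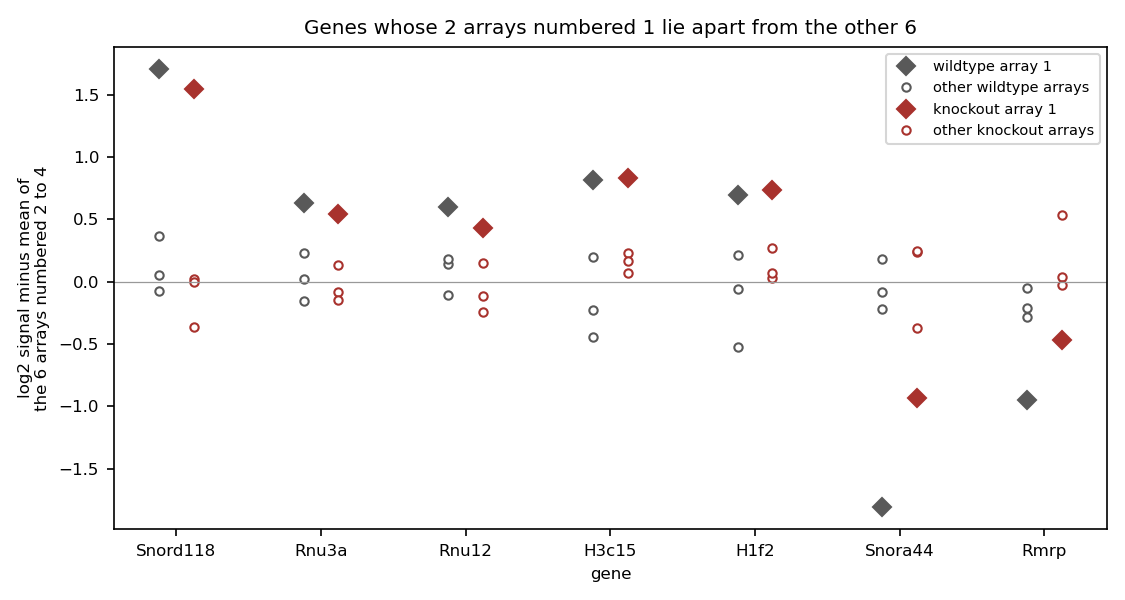
Log2 signal on each array, minus the gene's mean over the 6 arrays numbered 2 to 4, for 7 genes on which both arrays numbered 1 (diamonds) lie apart from the other 6 (circles), wildtype in grey and knockout in red. Snord118 lies above by a gap of 1.18 and Snora44 below by a gap of 0.56.

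Host genes were set beside the snoRNA genes they hold. Each measured host was represented by its brightest probe set, and some had several, such as Rps12 with 14 and Gas5 with 4. Whether that probe set follows the transcript that carries the snoRNA was not tested. For 27 snoRNA genes the host was measured, which came to 23 hosts, of which 14 had a knockout mean above wildtype (median 0.06). Limma called 0 of the 23. The snoRNA and host differences had the same sign in 18 of 27 pairs, and the snoRNA difference was the larger in 12. Across the 27 pairs, some of which share a host and all of which share the 8 arrays, Pearson's r was 0.41 and Spearman's rho 0.21, and r was 0.17 without Snord47.

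Rps3a1 measured 9.62, 9.80, 9.54 and 9.94 in wildtype and 10.10, 9.77, 9.80 and 9.78 in knockout. Those groups overlapped, and the host differed by 0.14 (SE 0.11, limma adjusted p = 0.542) where Snord73b differed by 0.57. The excess of the snoRNA over its host was 0.44 (exact permutation test, two-sided p = 0.0571, adjusted over 27 pairs 0.579).

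Gas5 measured 11.18, 10.95, 11.02 and 10.51 in wildtype and 11.37, 11.17, 11.48 and 11.43 in knockout. Host and snoRNA both had a higher mean in knockout, the host by 0.45 (SE 0.13, limma adjusted p = 0.130) and Snord47 by 0.22 more (exact permutation p = 0.0857, adjusted 0.579). Ncl varied little, at 12.11, 12.08, 12.01 and 12.08 in wildtype and 12.19, 12.13, 12.16 and 12.11 in knockout. Every Ncl knockout array lay above every wildtype array, an order seen in 4.04% of all genes. The lowest knockout value, 12.1063, was only just above the highest wildtype value, 12.1054. Its difference was 0.08 (SE 0.06, limma adjusted p = 0.522), and Snord82 exceeded it by 0.47 (exact permutation p = 0.0857, adjusted 0.579).

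In other pairs the 2 differences were unlike. Snord57 differed by 0.19 while its host Nop56, a core protein of C/D box particles, differed by -0.16. Snora33 differed by 0.01 and its host Rps12 by 0.22 (limma adjusted p = 0.127). Every Rps12 knockout array, 11.63 to 11.74, lay above every wildtype array, 11.38 to 11.56, an order seen in 4.04% of all genes. For Snord57 and for Snora33 the gap to the host had an exact permutation p of 0.171, adjusted 0.579. The lowest p that 4 against 4 arrays allow is 0.0286, and 0 of 27 pairs reached it. To pass after adjustment at that p, at least 16 pairs would have had to reach it.

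**Figure D5:**
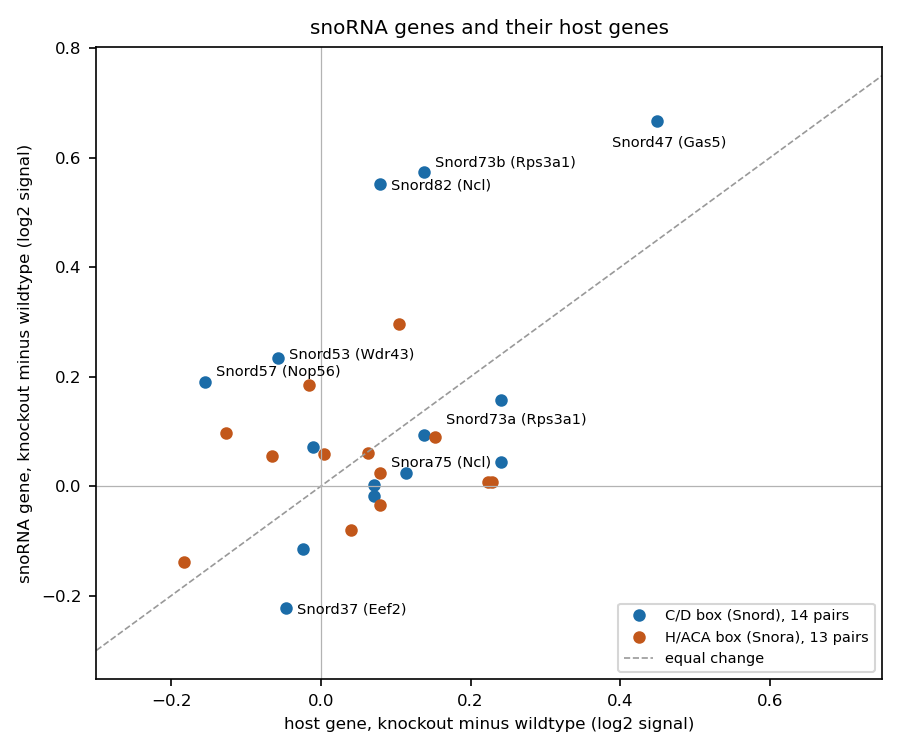
Difference in log2 signal, knockout minus wildtype, of 27 snoRNA genes against that of the gene they lie in; the dashed line marks equal change. Snord73b (0.57, host 0.14) and Snord82 (0.55, host 0.08) stand farthest above the line.

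By kind of host, a split made after the values were seen, the 13 snoRNA genes in non-coding hosts had a median difference of 0.24, with 12 of 13 above 0. The 21 in ribosomal protein genes had a median of 0.06, with 17 above 0, and the 16 in other coding genes a median of 0.06, with 10 above 0. The ranges of the 3 kinds overlapped widely, from -0.07 to 0.67, from -0.22 to 0.57 and from -0.22 to 0.55. The difference between kinds was not tested.

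Where 2 measured snoRNA genes share a host, they lie within 1 annotated gene and can be compared within it. Whether they come from the same transcript was not tested. There were 10 such pairs, holding 20 genes. Snord73a, next to Snord73b in Rps3a1, measured 6.06, 6.10, 5.83 and 6.11 in wildtype and 5.97, 6.25, 6.20 and 6.07 in knockout. Those groups overlapped (difference 0.09, limma adjusted p = 0.623). The mean signal of Snord73a, 6.07, lay below the 25th percentile of gene level, 6.22, where differences are understated. On this scale Snord73a differed by 0.48 less than Snord73b (exact permutation p = 0.0286, the smallest possible, adjusted over 10 pairs 0.0952).

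Snora73a differed by 0.23 less than Snora73b and Snord95 by 0.25 more than Snord96a, its neighbour in Rack1, each with the same exact permutation p of 0.0286 and 0.0952 after adjustment. Snord49a differed by 0.37 less than Snord49b (exact permutation p = 0.0857, adjusted 0.214). In Ncl, the H/ACA box gene Snora75 differed by 0.02 and the C/D box gene Snord82 by 0.55 (exact permutation p of the gap 0.171, adjusted 0.327). After adjustment 0 of 10 pairs passed, and 3 of 10 were under 0.05 without it. With 4 against 4 arrays the adjusted p could go under 0.05 only if at least 6 of the 10 pairs reached the smallest p, so this count of 0 says little.

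The proteins that make and use snoRNAs were taken from lists, and limma called 0 of their genes. Of the 4 C/D box core proteins, the methyltransferase fibrillarin (Fbl) differed by -0.08, Nop56 by -0.16, Nop58 by 0.06 and Snu13 by -0.01. All of the 4 H/ACA box core proteins were slightly below 0, with the pseudouridine synthase dyskerin (Dkc1) at -0.03, Gar1 at -0.05, Nhp2 at -0.10 and Nop10 at -0.05. The core proteins of the 2 classes thus had medians of -0.04 and -0.05, while the RNAs had medians of 0.09.

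Of 17 assembly and trafficking factors, 12 were below 0 (median -0.09). At an unadjusted limma p under 0.05, where 9.38% of all genes were lower, 3 of the 17 were lower. These were both subunits of the nuclear cap-binding complex, Ncbp2 at -0.32 and Ncbp1 at -0.19, and the export adaptor Phax at -0.19, with limma adjusted p from 0.144 to 0.196. Of 9 factors that release or trim intronic RNAs, 9 were below 0 (median -0.09). All 9 had mean signals above the median level too, the lowest at 7.86. The exosome subunit Exosc3 was at -0.28 (limma adjusted p = 0.166), with all knockout arrays, 8.34 to 8.47, below all wildtype arrays, 8.50 to 8.90. Such an order was seen in 6.47% of all genes. Dbr1, the enzyme that opens intron lariats, was at -0.17 (limma adjusted p = 0.262).

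The 13 other nucleolar factors had a median of -0.06, with 4 above 0. The 4 RNA polymerase I genes had a median of 0.03, and of these the initiation factor Rrn3 was at -0.20 (limma adjusted p = 0.155). Measured ribosomal protein genes numbered 67, and 53 of them had a knockout mean above wildtype (median 0.08). Limma called 0 of them, with 13 higher and 1 lower at an unadjusted p under 0.05. Among all genes 7.29% were higher and 9.38% lower at that p. In 12 ribosomal protein genes, or 17.9%, the knockout arrays lay wholly above the wildtype arrays, beside 4.04% of all genes. Of 34 histone genes 24 were above 0 (median 0.08, 0 called).

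Markers of other cells differed between the genotypes too. Of 9 red-cell genes measured, 8 were below 0 (median -0.32, 0 called). At an unadjusted limma p under 0.05, where 9.38% of all genes were lower, 5 of the red-cell genes were lower. Their median deviation by array ran from -0.12 to 0.44 in wildtype and from -0.28 to 0.10 in knockout. Limma called 1 of 7 neuronal genes, 2 of 5 somite genes and 1 of 7 metanephric mesenchyme genes lower and 1 of 9 nephric duct genes higher. Among all genes 1.08% were called lower and 0.362% higher. Below 0 were 6 neuronal (median -0.21), 4 somite (-0.50) and 6 mesenchyme genes (-0.21). Of the nephric duct genes 7 were above 0 (median 0.15). In 4 of these 9, or 44.4%, the knockout arrays lay wholly above the wildtype arrays. Of 5 endothelial genes 4 were above 0 (median 0.04, 0 called). Of 5 muscle genes 4 were above 0 (median 0.30), with 0 called. At an unadjusted limma p under 0.05, 3 were higher, beside 7.29% of all genes. In 2 of the 5 the knockout arrays lay wholly above the wildtype arrays, beside 4.04% of all genes. The 3 Y-linked genes measured were high on wildtype replicate 1 and on knockout replicates 3 and 4 and low on the other 5 arrays, and limma called 0 of them. Fitted beside that Y-linked signal, Snord47 had a limma adjusted p of 0.0336 and Snord73b one of 0.0664. The part of cell composition in the snoRNA differences was not tested.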

How the data were processed

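The authors deposited 1 log2 signal per probe set and array, made with RMA and Partek, per the submitters' processing notes. Versions, settings, filters and genome build were not given in the sources used here. RMA equalises the arrays' distributions, so a shift of all RNAs together could not be seen, and different probe sets' signals are not amounts that can be compared.

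The table holds 27478 probe sets, which the platform annotation names. Those with 1 symbol were kept, 1 per gene by highest mean, leaving 19356 genes. Symbols, hosts and sequences come from RefSeq's GRCm38.p6. That table gives no strand, so the smallest gene span holding a snoRNA gene was taken as its host. Where 3 snoRNA genes lay in 2 genes, this made a choice. Knockout was compared with wildtype by limma 3.58.1 (lmFit and eBayes, R 4.3.3) over all genes, with Benjamini-Hochberg adjustment and a threshold of 0.05. Pair differences had two-sided exact permutation tests. On simulated data with the same 19356 genes, 70 of 100 genes changed by 0.5 and 95 of 100 changed by 1 were recovered, with 12 false calls. The changed genes were drawn at random from all genes, so recovery among snoRNA genes was not simulated.

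Genes were named by rule: in each class those past the threshold, the 8 with the lowest p, the 3 highest and 3 lowest in level, the 2 most and 2 least variable, members with 2 probe sets, hosts, core proteins and Sox11. Other genes named, and the host, number 1 and motif comparisons, were chosen after values were seen. The members and lists were chosen with earlier results of these data known. Alternatives changed the scaling, level filter, probe set rule, moderation, array weights, block, Y-linked covariate and arrays left out. The list of mitochondrial genes had 0 measured genes. Symbols on probe sets with several symbols, 18 more snoRNA genes, entered only as an alternative. Figures were drawn with matplotlib 3.10.9.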

Additional observations from a re-analysis of the deposited data

Results flagged for a closer look

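In 3 of 102 groups of 4 arrays, each gene in each genotype, a single array lay far from the others by Dixon's test, in which chance picks out about 1 in 20 groups. Snord38a, a C/D box gene, was at 6.15 on wildtype replicate 3, where the nearest other wildtype array had 6.63. Snord96a, in Rack1, was at 7.15 on the same array, with the nearest at 7.34. Snord87, in the non-coding host Snhg6, was at 8.64 on wildtype replicate 4, with the nearest at 8.32.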

How the results depend on the processing

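The count of snoRNA genes higher in knockout, 1 at the settings used, became 3 with a further quantile normalization, 2 with only genes at or above the 25th percentile of level, 3 with genes at or above the median level, 2 with trend and robust moderation, 4 at a threshold of 0.10, and 2 without both arrays numbered 1, the last chosen after seeing the data. It was 0 in a linear model without moderation and with 1 value per snoRNA number, and ran from 0 to 3 with each array left out in turn. The count lower was 0 in every alternative run. With the replicate number as a block the count was again 1, but the gene was Snora73b in place of Snord73b, and with the Y-linked covariate it was Snord47. Same-numbered arrays correlated over all genes at -0.17, 0.09, -0.04 and 0.06 and over the snoRNA genes at 0.67, 0.37, 0.32 and 0.09. Neither set lay wholly above 0.1, so the numbers were not taken to pair them. The median differences stayed above 0 in each alternative run, from 0.0279 to 0.128 for C/D box and from 0.0264 to 0.184 for H/ACA box genes. The lowest of both came without wildtype replicate 3 and the highest with genes at or above the median level, a filter that leaves 34 snoRNA genes. Median centring moved the all-gene median to 0.03. Each cause was not tested beyond the fewer genes or arrays of the setting itself. Over all genes 70 of 100 simulated differences of 0.5 were recovered. The changed genes were drawn from all genes, whose median pooled SD was 0.121, beside 0.187 for snoRNA genes. That share therefore does not carry over to the snoRNA genes. Those near the low end of signal may also have understated differences.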

Other observations

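The snoRNA genes with 2 probe sets gave similar differences from each. Snora21 differed by 0.06 and 0.05, Snora3 by 0.01 and 0.01 and Snord58b by 0.24 and 0.26. For Snora30, as for Snord118, both probe sets held identical values on all 8 arrays, so the second is not a separate measurement. The probe sets of Snora3 and Snord58b were also close in value, at 9.16 and 9.16 and at 8.37 and 8.34 on wildtype replicate 1. Whether they share probes was not examined, so their likeness is not separate support. Snord104, the least variable C/D box gene (pooled SD 0.0978), measured 11.46, 11.47, 11.31 and 11.63 in wildtype and 11.64, 11.59, 11.52 and 11.63 in knockout. Its difference was 0.13 (95% interval -0.04 to 0.30). Snora23, in the importin gene Ipo7, differed by 0.18 (95% interval -0.12 to 0.49), and its highest array was wildtype replicate 1 at 10.68.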
